A study of Mus musculus with 2 samples.

Results

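Cell cycle and DNA replication genes were followed in bleomycin-injured mouse lung with and without overexpression of heat shock protein 27 (HSP27). The 37 genes were chosen by function, with earlier results of these data known. Of them, 25 act in G2 and mitosis (cyclins, kinases, kinesins, centromere and chromosome proteins) and 12 act at the entry into S phase or in DNA synthesis. They are 37 of 20886 genes with a named probe on the array. Each group was 1 array of total RNA from whole lung of a C57BL6/N mouse labelled male and 6 weeks of age, taken 14 days after 1.25 mg/kg bleomycin given into the trachea. In the second group the C57BL6/N mouse also carried an HSP27 overexpression transgene. No array of lung without bleomycin was analysed here. The promoter and species of the transgene, and whether a sample pools animals, are not given in the sources used here.

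A dividing cell copies its DNA in S phase and separates the copies in mitosis. E2F factors switch on the replication genes at the G1/S boundary. Mitotic genes come on later, through the MuvB complex with B-Myb and FoxM1, at promoter elements that the DREAM complex holds silent in resting cells. Adult lung divides little, and after bleomycin alveolar epithelial cells, endothelial cells, fibroblasts and leukocytes are known to enter the cycle. In RNA of whole tissue, fewer dividing cells and less RNA per dividing cell cannot be told apart.

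Several facts of the whole arrays bear on every value. The 75th percentile of signal was 1287 for C57BL6/N and 1426 for the transgenic lung, and no spot was saturated. All differences are given on the log2 scale, transgenic minus C57BL6/N, after subtraction of this percentile. Each group being 1 array, no spread between animals could be had, nothing was tested, and precision is limited by the number of arrays. Technical spread was taken from probes printed in 10 spots, split by signal into 3 groups of 104 probes. The standard deviation (SD) of the single-spot difference was 0.17 in the dim group, 0.09 in the next and 0.08 in the bright group. Both samples were labelled male, yet Xist, the RNA of the inactive X chromosome of females, read 521 and 330 at its probes on the C57BL6/N array. In the transgenic sample these probes read 2.83 and 3.36, not well above background. The Y-linked Ddx3y read 508 for C57BL6/N and 2437 for the transgenic lung, and Eif2s3y read 800 and 3338, all well above background. For C57BL6/N, Uty cleared background at 1 of 2 probes and Kdm5d did not. The array labelled C57BL6/N thus held both Xist and Y-linked signal, against its sex label, and each comparison below rests on it. Whether that sample mixed sexes was not tested. Hspb1, the mouse gene for HSP27, read 41040 and 53554, a difference of 0.24. The upper quartile of all measured genes was also 0.24. All 6 alveolar type 2 markers of the lung were well above background on both arrays. On the transgenic array, heart muscle and fat transcripts were also present. The summed signal of 9 cardiac markers, in units of the 75th percentile, was 3.38 for C57BL6/N and 18.1 for the transgenic lung, that of 7 adipose markers 0.235 and 21.0, and that of 5 basal airway cell markers 0.414 and 2.59. Such sums give the brightest markers the most weight. Among these were Cfd of fat, at 30.3 and 26422, and Actc1 of heart, at 3853 and 10629. The fat marker Lep cleared background on neither array.

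The cell cycle genes were slightly lower in the transgenic lung as a group, and hardly any differed by a large factor. Of the 37 genes, 34 were measured on both arrays, and their median difference was -0.20, against -0.04 for all 15495 measured genes. The mitotic genes (23 measured) had a median of -0.20 and the S-phase genes (11 measured) a median of -0.21. The mitotic and S-phase members were thus at the same median difference within 0.01. This did not hold for the wider lists described below. Other mitotic genes were at -0.24, origin licensing and firing genes at -0.05, replication fork genes at -0.08 and nucleotide supply genes at -0.04. Differences lay below 0 in 28 of 34 members and in 54% of all measured genes. The count was 25 of 34 with median scaling and with cyclic loess, where 48.3% and 47.0% of all genes lay below 0. At 1.5-fold, 1 measured member was higher, against 10.2% of all genes, and 1 was lower, against 8.31%. No measured member was past 2-fold, where 3.81% of all genes were higher and 1.87% lower. Cenpf, not measured on both arrays, was 1.99-fold lower by a comparison with the dimmest detected probe, given below, which is no strict bound. Of all genes, 55.1% of those past 1.5-fold were higher, a share of 66.5% after cyclic loess. The members were closer together than other genes: their quartiles were -0.25 and -0.05, and those of all genes -0.29 and 0.24.

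**Figure D1:**
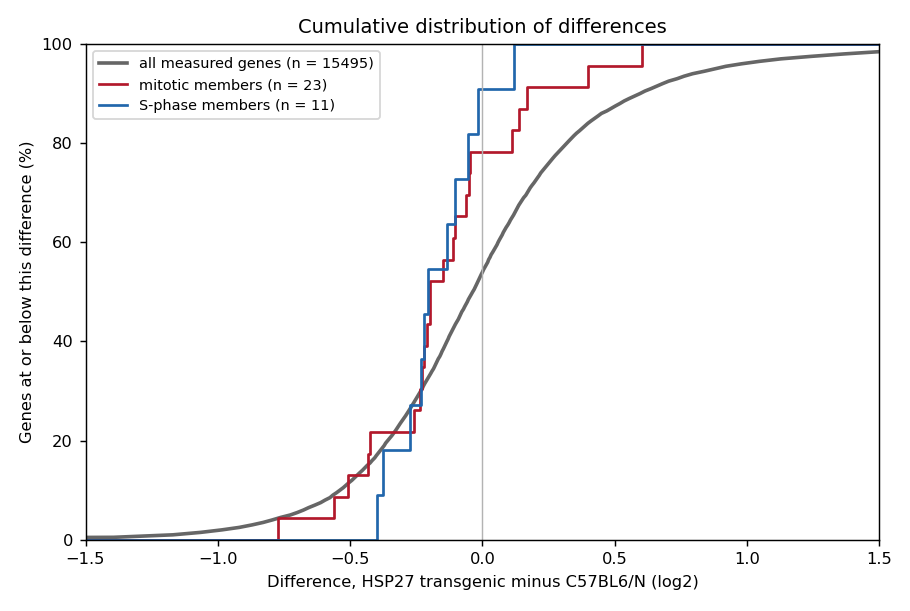
Share of genes (vertical axis, %) at or below each difference between the arrays (horizontal axis, log2, HSP27 transgenic minus C57BL6/N), for all 15495 measured genes, the 23 mitotic members and the 11 S-phase members. The curves of both member groups climb most steeply between the quartiles of the members, -0.25 and -0.05, left of the middle of the curve for all genes at -0.04.

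Against the technical spread, 14 of 34 members lay more than 2 repeat-spot SD below 0, against 30.9% of all genes, and 2 members, Bub1b and Cenpa, lay more than 2 SD above, against 26% of all genes. Another 8 were within 1 SD of 0, where 22.7% of all genes lay, among them Top2a, Plk1, Mcm4 and Mcm7. This spread covers spots and says nothing about animals. Markers of cell types that can divide in this tissue did not share a direction. Among 7 measured endothelial markers, 4 were lower by 1.5-fold or more and 0 higher (median -0.68), and of 5 B cell markers 3 were lower and 0 higher (-0.74). Of 7 macrophage markers 5 were higher and 1 lower (0.73), of 6 fibroblast markers 4 were higher and 0 lower (0.84), and of 6 T cell markers 0 were past 1.5-fold (-0.14). The 6 alveolar type 2 markers all lay below 0, as did 54% of all genes, and 0 of them were past 1.5-fold (-0.35). Of all genes, 10.2% were at least 1.5-fold higher and 8.31% lower. The summed marker signal was 105 and 67.9 for endothelium on the C57BL6/N and transgenic arrays, 7.14 and 4.50 for B cells, 23.1 and 37.1 for macrophages, 146 and 246 for fibroblasts, 3.70 and 3.39 for T cells and 560 and 428 for alveolar type 2 cells, in the units above. The B cell factor Pax5 cleared background only in the C57BL6/N sample. The part of these cells, of heart and fat RNA and of the difference in sex-linked signal in the values of the members was not tested.

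**Figure D2:**
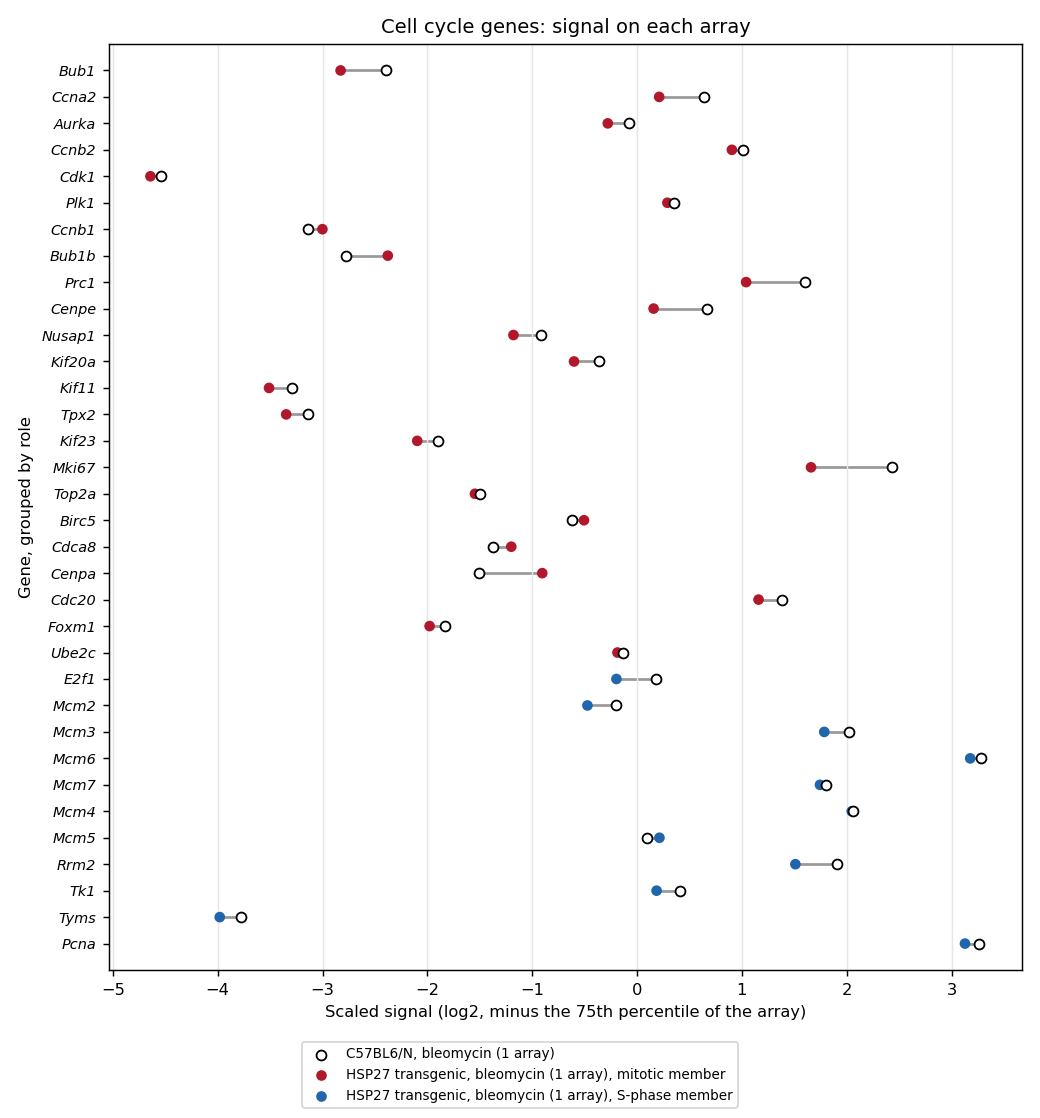
Scaled signal (horizontal axis, log2, minus the 75th percentile of the array) of each of the 34 measured members, a row per gene, grouped by role. Open circles are the C57BL6/N array and filled circles the transgenic array; each is 1 array, and pairs are to be read along a row, since signals of different probes are not comparable. The widest gap is that of Mki67, from 2.43 to 1.66, and in 28 rows the filled circle lies to the left.

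Mitotic and replication genes are known to be controlled through different promoter elements, so 4 promoters from RefSeq (build GRCm38.p6) are shown. Of the 37 members, 30 had an entry of 250 bases before to 50 bases after the start, and Ccna2, Aurkb, Kif20a, Tpx2, Foxm1, Ccne2 and Mcm4 had none. Elements known from these gene classes were searched on both strands: the cell cycle genes homology region (CHR, as TTTGAA or TTCGAA), which MuvB binds, the NF-Y box (CCAAT) and E2F sites, written as TTCCCGC with the second form TTCGCGC, the third form TTGGCGC and the fourth form TTGCCGC. Matches of the 3 elements stand in capitals, and E2F matches on opposite strands can overlap. Mki67 and Cenpa were chosen as the members past 1.5-fold in each direction, and Mcm5 and Mcm3 as helicase subunits on either side of 0. Mki67 lies at chr7:135716330-135716629, minus strand, Cenpa at chr5:30666636-30666935, plus strand, Mcm5 at chr8:75109259-75109558, plus strand, and Mcm3 at chr1:20820263-20820562, minus strand.
Mki67: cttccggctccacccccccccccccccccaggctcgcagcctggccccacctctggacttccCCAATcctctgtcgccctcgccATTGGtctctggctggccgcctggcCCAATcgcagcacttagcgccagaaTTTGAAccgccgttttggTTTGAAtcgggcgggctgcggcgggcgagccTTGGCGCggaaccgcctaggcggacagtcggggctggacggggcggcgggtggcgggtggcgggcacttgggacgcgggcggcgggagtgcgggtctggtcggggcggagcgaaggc
Cenpa: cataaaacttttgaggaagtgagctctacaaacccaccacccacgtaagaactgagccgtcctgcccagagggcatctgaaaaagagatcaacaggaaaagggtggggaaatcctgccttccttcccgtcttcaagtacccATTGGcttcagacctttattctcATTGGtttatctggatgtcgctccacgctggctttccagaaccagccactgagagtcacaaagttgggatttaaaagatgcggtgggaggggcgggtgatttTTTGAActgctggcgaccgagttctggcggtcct
Mcm5: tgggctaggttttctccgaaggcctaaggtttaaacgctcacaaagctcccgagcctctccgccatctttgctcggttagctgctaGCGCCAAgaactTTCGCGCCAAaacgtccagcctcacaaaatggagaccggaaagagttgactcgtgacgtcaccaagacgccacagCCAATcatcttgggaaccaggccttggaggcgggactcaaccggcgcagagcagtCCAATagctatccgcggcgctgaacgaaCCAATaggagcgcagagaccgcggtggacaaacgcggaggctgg
Mcm3: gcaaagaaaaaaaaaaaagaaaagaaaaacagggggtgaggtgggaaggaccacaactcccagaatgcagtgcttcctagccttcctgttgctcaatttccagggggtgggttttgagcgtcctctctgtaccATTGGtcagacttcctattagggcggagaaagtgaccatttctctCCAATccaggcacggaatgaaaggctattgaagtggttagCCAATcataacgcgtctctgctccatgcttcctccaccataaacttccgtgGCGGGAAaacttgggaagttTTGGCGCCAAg

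The Mki67 window held 3 NF-Y boxes, 2 CHR matches at positions -116 and -98 from the start, and 1 E2F match. The Cenpa window held 2 NF-Y boxes and 1 CHR match at position 17 after the start. Neither the Mcm5 nor the Mcm3 window held a CHR match, and each held 3 E2F matches, at -164 to -143 in Mcm5 and at 20 to 49 in Mcm3. Over 21 promoter entries of mitotic members, 17 (81.0%) held a CHR match, 19 (90.5%) an NF-Y box and 3 (14.3%) an E2F match. Over 11 entries of S-phase members, 2 (18.2%) held a CHR match, 8 (72.7%) an NF-Y box and 6 (54.5%) an E2F match. Among all 32851 promoter entries the shares were 19.2% for CHR, 37.4% for the NF-Y box and 9.57% for E2F. The wider list of mitotic genes, none of them members, had a CHR match in 26 of 39 entries (66.7%). Members with a CHR match had a median of -0.11 (n = 17, from -0.77 to 0.60) and those without -0.21 (n = 12, from -0.51 to 0.14). The medians were -0.10 with an E2F match (n = 8) and -0.20 without (n = 21), and -0.12 with an NF-Y box (n = 24) and -0.22 without (n = 5). For each element the median with a match was nearer to 0, the ranges overlapped, the groups share members, and no test was made; a match is a description of letters, not a measured site.

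Cyclins and mitotic kinases came first. Paired readings give the C57BL6/N array first and the transgenic array second. Ccna2, the A-type cyclin of S phase and G2, read 2001 and 1651, a difference of -0.43. Ccnb2, a B-type cyclin that drives entry into mitosis with Cdk1, read 2599 and 2670, a difference of -0.11 after scaling. The signal of Ccnb2 was thus nearly equal on both arrays. That of Ccna2 was lower by more than 2 technical SD, as in 30.9% of all genes.

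Probes of Cdk1 and Ccnb1 differed among themselves. Ccnb1, the main mitotic cyclin, had 3 probes, of which the brightest read 968 and 995 (-0.11), the middle one 81.9 and 73.4 (-0.31) and the dimmest 39.4 and 77.3 (0.83). Their mean of 0.14 owes its sign to the dimmest probe. Cdk1, the kinase that B-type cyclins activate, read 544 and 553 at its brightest probe (-0.13), and its dim probes, which read 15.9 and 14.8, and 19.6 and 22.8, were at -0.26 and 0.07, for a mean over probes of -0.10. The lowest signal well above background was 11.9 and 12.5, so these dim probes stood just over it.

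Spindle checkpoint kinases lay on opposite sides of 0. Bub1, a kinetochore kinase, was the member with the firmest technical base, since its probe was printed in 10 spots. On the C57BL6/N array the spots read from 222 to 268 (median 244), and on the transgenic array from 186 to 215 (median 199). The spots of the arrays did not overlap, and the scaled means were -2.39 ± 0.07 (SD, 10 spots) and -2.83 ± 0.07 (SD, 10 spots), a difference of -0.43. Bub1b, which encodes the checkpoint protein BubR1, read 188 and 274, a difference of 0.40, and it lay above 0 under all 11 alternative settings. Bub1 and Bub1b thus differed in opposite directions, each beyond 2 technical SD. Of all genes, 30.9% lay that far below 0 and 26% that far above. How many other probes of 10 spots had no overlap between the arrays was not counted.

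Among the Aurora and Polo kinases, Aurka, which acts at the spindle poles, read 1218 and 1175 (-0.20). Plk1, a kinase of mitotic entry and cytokinesis, read 1642 and 1743 (-0.06). The difference of Aurka was more than 2 technical SD below 0, where 30.9% of all genes lay. That of Plk1 was within 1 technical SD. Aurkb, the kinase of the chromosomal passenger complex, read 3.68 and 4.80 at its single probe, not well above background on either array, so that no fold is given.

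Kinesins and spindle proteins were all lower. The 7 measured members lay below 0, as did 54% of all genes, with a median of -0.24. They did so under each of the 11 alternative settings, where 47.0% to 57.8% of all genes lay below 0. Prc1, which bundles microtubules of the central spindle, read 3907 and 2933 (-0.56, 1.48-fold lower). Cenpe, the kinesin that moves chromosomes to the spindle equator, read 2039 and 1591 (-0.51). These gave the largest differences in the group, and neither reached 1.5-fold.

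The motor Kif11, which pushes spindle poles apart, read 132 and 125 (-0.22). Kif20a and Kif23, kinesins of cytokinesis, read 999 and 940 (-0.24) and 345 and 333 (-0.20). The spindle assembly factor Tpx2 read 606 and 598 at its brighter probe (-0.17) and 35.3 and 32.9 at its dimmer one (-0.25), and Nusap1, a microtubule protein, read 681 and 630 (-0.26). These differences ran from -0.26 to -0.20 by gene, about the median of all members.

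**Figure D3:**
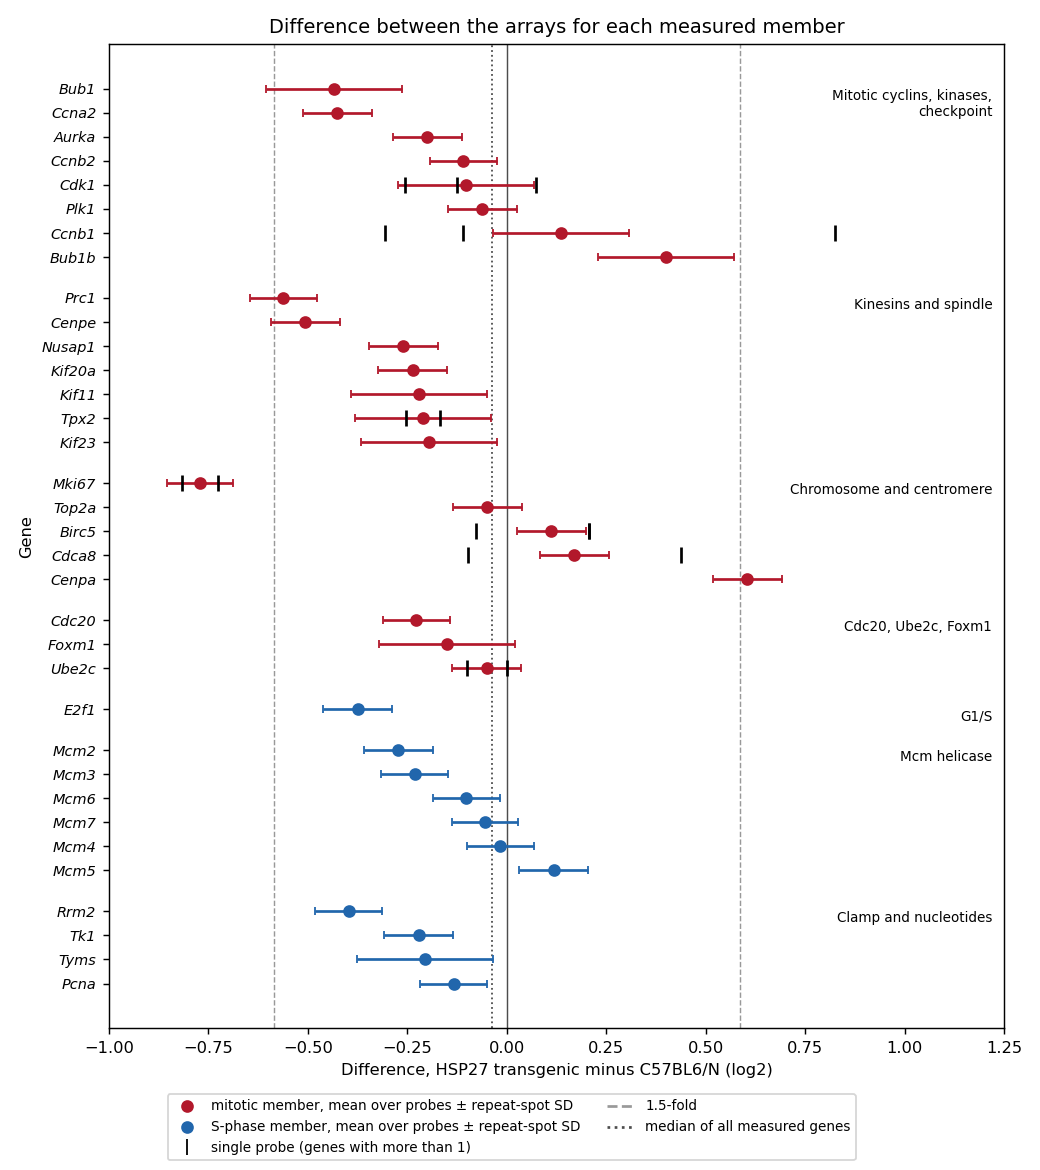
Difference between the arrays (horizontal axis, log2, HSP27 transgenic minus C57BL6/N) for each of the 34 measured members, a row per gene, with mitotic members in red and S-phase members in blue. Bars are ± 1 SD of a difference between single repeat spots, ticks are single probes of genes with more than 1, dashed lines mark 1.5-fold and the dotted line the median of all genes. Mki67 (-0.77) and Cenpa (0.60) lie outside the dashed lines, and the probes of Ccnb1 spread from -0.31 to 0.83.

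Chromosome and centromere proteins held both extremes. Mki67 encodes Ki-67, the proliferation marker that coats mitotic chromosomes. One of its probes read 7605 and 5099 (-0.72) and the other 6329 and 3981 (-0.82), and the gene was 1.71-fold lower in the transgenic lung. Both probes were bright and close to each other, and 4.33% of all measured genes had a lower difference. Mki67 stayed between -0.77 and -0.72 in the 11 alternative settings. Cenpa, the histone variant of centromeres, read 452 and 762 at 1 probe, a difference of 0.60 (1.52-fold higher). It was at 0.57, under 1.5-fold, with the normexp background correction, which adds an offset of 50 to each signal. Of all genes, 90.2% had a lower difference than Cenpa. Top2a, the topoisomerase that untangles sister chromatids, read 456 and 488 (-0.05), so that the difference at Mki67 was not seen at this other common marker of dividing cells.

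Members of the chromosomal passenger complex depended on the probe. Cdca8, which encodes borealin, read 2004 and 2075 at its brighter probe (-0.10) and 124 and 186 at its dimmer probe (0.44). Birc5, which encodes survivin, read 5524 and 5797 at its brightest probe (-0.08), and 417 and 534, and 256 and 327, at the dimmer ones (both 0.21). Ccnb1, Cdca8 and Birc5 were above 0 as means over probes (0.14, 0.17 and 0.11) and below 0 at their brightest probe. These were 3 of the 6 members above 0, and the other 3, Bub1b, Cenpa and Mcm5, had 1 probe each. With the brightest probe of each gene, 31 of 34 members lay below 0, against 54.2% of all genes.

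Cenpf, a kinetochore protein, cleared background only in the C57BL6/N sample. Its probe read 22.4 there and 7.93 in the transgenic sample. The dimmest probe that cleared background in the transgenic sample read 12.5, and against it the difference was 1.99-fold after scaling. This is no strict bound, since Ttk read 14.4 in the transgenic sample and did not clear background. The signal lay close to background, unlike that of Cenpe.

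Regulators of mitotic exit and transcription lay from -0.23 to -0.05 by gene. Cdc20, the activator of the anaphase-promoting complex, read 3366 and 3185 (-0.23). This was more than 2 technical SD below 0, where 30.9% of all genes lay. Ube2c, the ubiquitin-conjugating enzyme of that complex, read 1493 and 1543 at one probe (-0.10) and 918 and 1017 at the other (0.00). Foxm1, the transcription factor of G2 and mitotic genes, read 362 and 362 at its usable probe (-0.15). The other, dim Foxm1 probe read 14.2, below the detection flag, for C57BL6/N and 24.8 for the transgenic lung. That is 1.58-fold higher after scaling, as a ratio to a reading not well above background. The Foxm1 probes thus pointed in opposite directions, but the dim probe was not usable and the bright probe lay within 1 technical SD of 0.

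The G1/S regulators, the enzymes of nucleotide supply and the sliding clamp formed the first set of S-phase genes. E2f1, an activator of replication genes, read 1456 and 1244 (-0.37). Ccne2, an E-type cyclin of the G1/S boundary, read 2.65 and 5.38 and was not well above background on either array. Rrm2, the regulated subunit of ribonucleotide reductase, read 4830 and 4063 (-0.40), the lowest difference of the S-phase members. Thymidine kinase (Tk1) read 1708 and 1623 (-0.22), and thymidylate synthase (Tyms) 94.0 and 90.3 (-0.21). The sliding clamp Pcna read 12343 and 12470 (-0.13). These regulators and enzymes, Ccne2 aside, all lay below 0, as did 54% of all genes, and ran from -0.40 to -0.13.

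The Mcm2 to Mcm7 proteins form the replicative helicase, loaded at origins in G1 phase. Mcm2 read 1120 and 1027 (-0.27), and Mcm3 read 5209 and 4917 (-0.23). Mcm6 read 12502 and 12907 (-0.10), Mcm7 read 4481 and 4779 (-0.06), and Mcm4 read 5383 and 5897 (-0.02). Mcm5 alone was above 0, at 1375 and 1654 (0.12). The subunits of this complex spanned 0 with a median of -0.08, close to the median of all genes. The sign of Mcm4 followed the scaling, with 6 of 11 alternatives below 0. No measured S-phase member was past 1.5-fold, against 10.2% of all genes higher and 8.31% lower.

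Other genes of the cycle were set beside these values, from lists that hold no member, also chosen with earlier results of these data known. The other mitotic genes (40 of 41 measured) had a median of -0.24, with 32 below 0, against 54% of all genes. Of these mitotic genes, 1 was at least 1.5-fold higher, against 10.2% of all genes, and 1 was lower, against 8.31%. Espl1, the separase that cuts cohesin, read 141 and 248 (0.67), and Cit, the citron kinase of cytokinesis, read 59.6 and 43.3 (-0.61). Both were under 1.5-fold with normexp (0.46 and -0.26), and Cit also with each other scaling and normalization (-0.58 to -0.47). The normexp offset of 50 draws differences of such dim probes towards 0. The checkpoint kinase Ttk cleared background only in the C57BL6/N sample, at 17.3 against 14.4. Condensin and cohesin subunits, which compact and hold chromatids, had 11 of 13 genes below 0, against 54% of all genes. Of these 13 genes, 0 were past 1.5-fold, against 10.2% of all genes higher and 8.31% lower. Their median of -0.43 was the lowest of the cell cycle lists.

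Replication genes outside the member list lay closer to all genes. Origin licensing and firing factors had a median of -0.05 over 19 genes, with 2 at least 1.5-fold higher, against 10.2% of all genes, and 0 lower. Both were subunits of the GINS complex, which activates the helicase: Gins3 read 6193 and 11927 (0.80), and Gins2 read 160.3 and 278 (0.64), under 1.5-fold with normexp (0.50). The other GINS genes, Gins1 and Gins4, were at 0.15 and 0.21. Cdc7, a kinase of origin firing, read 30.6 for C57BL6/N and 9.17, not well above background, for the transgenic lung. By the comparison used for Cenpf it was 2.71-fold lower, which is no strict bound either. The median of 24 replication fork genes was -0.08, with Pole2, a subunit of DNA polymerase epsilon, at 145 and 275 (0.77) the single gene past 1.5-fold. The median of 10 nucleotide supply genes was -0.04, and 1 was at least 1.5-fold lower: Cad, the first enzyme of pyrimidine synthesis, read 37.5 and 19.3 (-1.10). With normexp, whose offset of 50 is above both readings, Cad was at -0.35, under 1.5-fold. The stricter filter on dim probes left Cad out.

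Factors that set the pace of the cycle differed by list. The median of 18 E2F, Rb and MuvB genes was -0.28, with 3 at least 1.5-fold lower, against 8.31% of all genes, and 0 higher. E2f2, an activator E2F, read 5874 and 3670 (-0.83). Lin9, a subunit of MuvB, read 696 and 434 (-0.83). Lin52, another subunit, named after its values were seen, had 3 probes that ran from -0.99 to -0.23, with a mean of -0.59. It was under 1.5-fold in 7 of 11 alternatives, at -0.23 with its brightest probe and at -0.42 with normexp. G1 cyclins, their kinases and checkpoint genes had a median of 0.03 over 12 genes, and Cdk inhibitors, which arrest the cycle, a median of 0.04 over 8 genes (from -0.49 to 0.41). No gene of the latter lists was past 1.5-fold, against 10.2% of all genes higher and 8.31% lower.

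**Figure D4:**
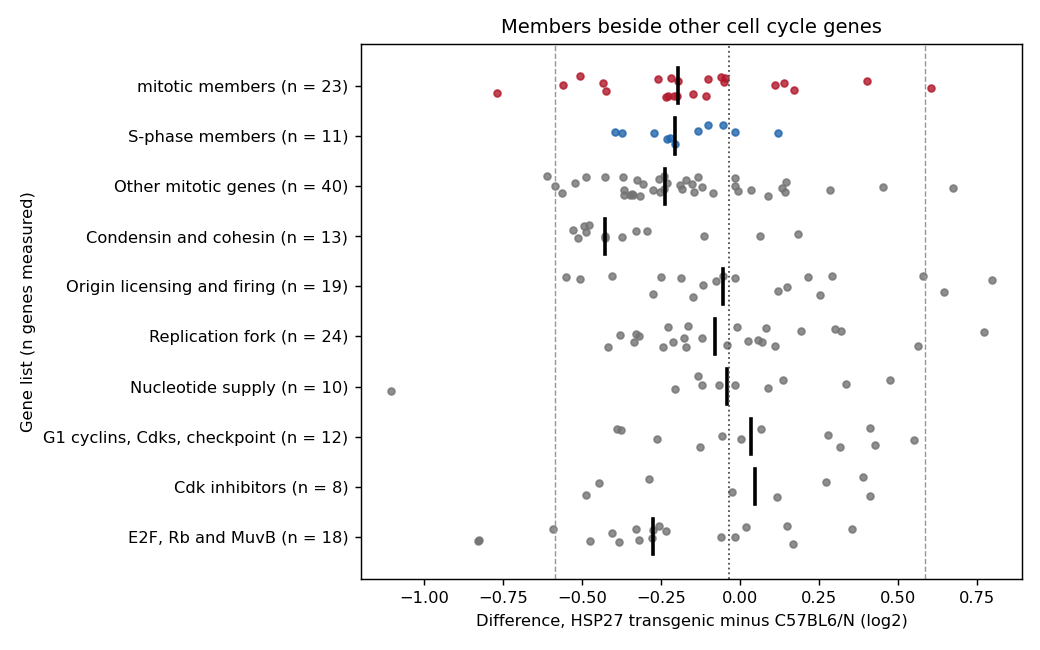
Difference between the arrays (horizontal axis, log2, HSP27 transgenic minus C57BL6/N) for each measured gene of the member groups and of the other cell cycle lists (vertical axis, with the number measured). Points are genes, black bars medians, dashed lines 1.5-fold and the dotted line the median of all genes, -0.04; the bar of condensin and cohesin lies at -0.43 and that of the Cdk inhibitors at 0.04.

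The medians were recomputed under 11 other settings of the processing. The mitotic median ran from -0.20 to -0.11 and the S-phase median from -0.21 to -0.10. The median of all genes ran from -0.06 to 0.03, and in each setting both member medians lay below it. The member medians were within 0.04 of each other in each setting.

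**Figure D5:**
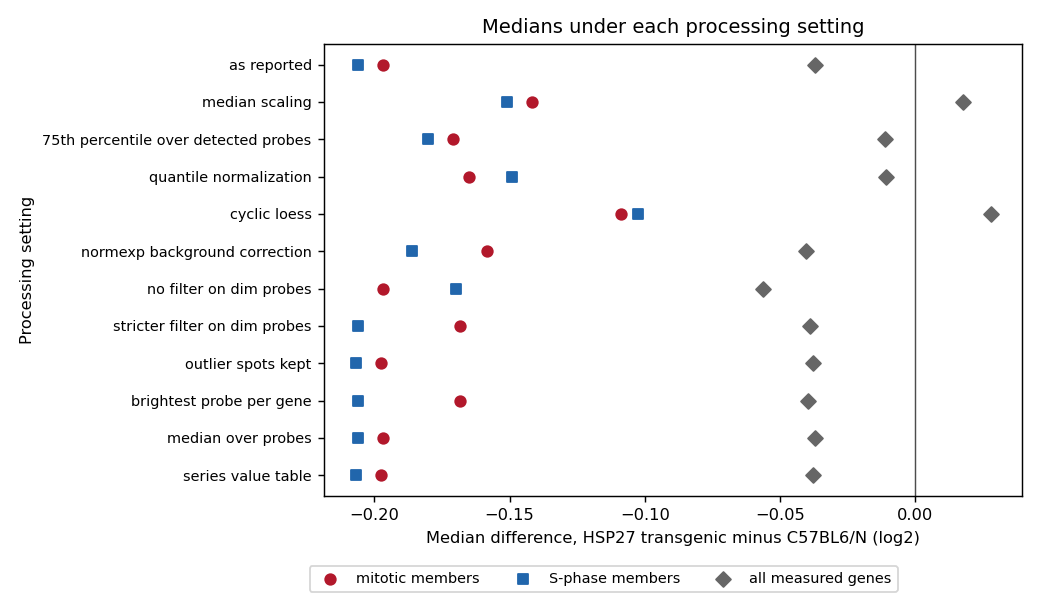
Median difference (horizontal axis, log2, HSP27 transgenic minus C57BL6/N) of the mitotic members (circles), the S-phase members (squares) and all measured genes (diamonds) under each processing setting (vertical axis). Circles and squares stay left of the diamonds in every row, and lie nearest to 0 after cyclic loess, at -0.11 and -0.10.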

How the data were processed

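Per the file headers, each deposited file holds fluorescence intensity per spot of a one-colour Agilent array, from Feature Extraction 11.5.1.1, with background subtracted and no normalization between arrays. Trizol extracts of total RNA were labelled with Cy3, per the labels. Spots marked well above background, saturated or outlying are flags from the same software, per the file headers. The deposited table of the series is an intensity too, within 0.1% of the processed signal for 39030 probes with 1 spot on each array. Both arrays share a slide and a scan.

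Control and outlier spots were left out, spots of a probe were averaged as log2, and the 75th percentile over 39429 probes was subtracted. Probes were named by RefSeq accession without version through a gene table of assembly GRCm38.p6 (27508 probes, 69.8%). Probes were used where 50% or more of the spots on each array were flagged well above background and none saturated; 44 of 48 member probes were usable. A gene was the mean of its usable probes. Normexp was run on median signals, without spots whose background was at or above the signal. The members and lists were chosen with earlier results of these data known. Named genes were all members, and genes of other lists past 1.5-fold, up to 2 per direction; Lin52, Gins1, Gins4 and the probes of Cdc7 and Ttk on 1 array alone were added after their values were seen. A gene of the nucleotide supply list is not reported here. Gene values were computed by code tested on simulated data. Python 3.11.15, numpy 2.4.6, pandas 2.3.3, matplotlib 3.10.9, R 4.3.3 and limma 3.58.1 were used.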

Additional observations from a re-analysis of the deposited data

Results flagged for a closer look

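The second probe of Foxm1, which the gene values do not use, gave signal well above background on the transgenic array and not on the C57BL6/N array. Its difference was 0.66 on the log2 scale, taken against that undetected reading and so not a bound. The usable Foxm1 probe was at -0.15.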

How the results depend on the processing

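The 11 alternatives were median scaling, the 75th percentile over detected probes, quantile normalization, cyclic loess, normexp, no filter and a stricter filter on dim probes, outlier spots kept, the brightest or the median probe per gene, and the deposited table. After cyclic loess the median of all members was -0.11, that of mitotic members -0.11 and that of S-phase members -0.10, a shift larger than the technical SD of 0.09; the median of all genes was then 0.03. The other alternatives moved these medians by less. With normexp, 0 members were at least 1.5-fold higher, where 6.33% of all genes were, and 4.40% lower. With dim probes kept, 2 members were at least 1.5-fold higher (Cenpa and Ccne2) and 2 lower (Mki67 and Cenpf), against 12.1% and 9.96% of all genes; the added genes were not well above background on an array. Of 648 values of single genes and lists, 620 moved by less than the technical SD, 28 by more, and 0 past 1.5-fold changed sign; the cause was not tested. No paired analysis was possible because each group is 1 array, and for the same reason no replicate could be left out. Signal not well above background on an array limits Cenpf, Aurkb, Ccne2, Ttk and Cdc7.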
